A study of Mus musculus with 10 samples.

Results

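The genes described here are 7 ligands of the epidermal growth factor (EGF) family (Areg, Ereg, Epgn, Btc, Hbegf, Tgfa and Egf) and 3 receptors of the ErbB family (Egfr, Erbb2 and Erbb3). They were chosen by name as members of this ligand and receptor family, and are 10 of the 49671 genes in the deposited table. The naming rule uses no measured value, but the family was picked with earlier results of these data known. Counts of members called are therefore a description. All 10 passed the filter on low values, which kept 21995 genes. The members were followed across all 5 groups of the study, with 2 bulk RNA-seq libraries in each.

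The cells were mouse skin epidermal cells sorted by FACS for SmoM2-YFP, an active form of Smoothened that drives Hedgehog signalling, in a study of the role of Survivin (gene Birc5) in basal cell carcinoma formation. Every group carried Rosa-SmoM2, so no library came from skin without the oncogene. The Krt14 6-week and Krt14 8-week groups were Krt14-CREER/Rosa-SmoM2, in which a promoter of basal keratinocytes drives the inducible recombinase, at 6 and 8 weeks of TAM (taken as tamoxifen, so the weeks are not an age). The LOF group added loss of function of Survivin to that genotype at 6 weeks. The Inv group was Inv-CREER/Rosa-SmoM2 at 8 weeks, in which the Involucrin promoter, active in differentiating keratinocytes, drives the recombinase. The GOF group added Krt14rtTA and gain of function of Survivin to the Inv genotype, also at 8 weeks. Krt14rtTA is not in the labels of the Inv group, so its presence and Survivin gain cannot be told apart, and the sample descriptions name both Inv libraries as pools.

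EGF family ligands are made as membrane-anchored precursors and are cut free by ADAM proteases, after which they bind EGFR on the same or a neighbouring cell. Bound receptors pair with each other or with ERBB2, which has no ligand of its own, or ERBB3, whose ligands are neuregulins, and signal through Ras to the kinase ERK. In epidermis this pathway is known for supporting keratinocyte proliferation and migration, and wounding or irritation raises several of the ligands.

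Values are normalized counts whose sum was nearly the same in every library (20011195 to 20014054), from 7693167 to 8870759 recovered reads per library. A gene with 3 reads, taken as the detection floor, would have a value of 6.76 to 7.80. Changes are log2 differences of value + 1, fitted with limma over all 5 groups, and "called" means a Benjamini-Hochberg adjusted p under 0.05 over all tested genes. For a single gene in 2 against 2 libraries, the smallest two-sided p of an exact permutation test is 0.333, so the calls rest on the spread shared across genes and groups. Nothing in the labels says that replicate libraries came from different animals, and the p-values then measure only the spread between these libraries, which may be technical. Birc5 checked the labels: it was at 382 and 429 in LOF against 961 and 1103 in the Krt14 6-week group, and at 7277 and 16384 in GOF against 237 and 265 in Inv. All 10 keratinocyte markers were detected, with summed values of 287027 to 459705. The X-linked gene Xist was high in both LOF libraries (30024 and 59594) and both GOF libraries (7589 and 56185) and between 51 and 194 in the other 6, while the Y-linked gene Ddx3y was at 956 or more in every library. The makeup of the libraries by sex, which these genes reflect, therefore cannot be told apart from Survivin loss or from Survivin gain.

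Areg, Ereg, Epgn and Btc lie side by side on chromosome 5 (build GRCm38, GENCODE M21), from the start of Epgn at 91027464 to the end of Btc at 91402994, with no other protein-coding gene between them. The gaps are 39.4 kb from Epgn to Ereg, 46.0 kb from Ereg to Areg and 209 kb from Areg to Btc. Areg and Epgn are the genes of this cluster with large changes and an entry in the RefSeq promoter table for GRCm38.p6, so bases from before their starts are shown from it: 250 for Areg and 197 for Epgn. The table starts Epgn at 91027517, which is 53 bases after the GENCODE start, and the bases shown stop before the earlier of these. Capitals mark the TATA box letters TATAAA and, in Areg, the cAMP response element (CRE) letters TGACGTCA.
Areg, chr5:91139349-91139598, plus strand: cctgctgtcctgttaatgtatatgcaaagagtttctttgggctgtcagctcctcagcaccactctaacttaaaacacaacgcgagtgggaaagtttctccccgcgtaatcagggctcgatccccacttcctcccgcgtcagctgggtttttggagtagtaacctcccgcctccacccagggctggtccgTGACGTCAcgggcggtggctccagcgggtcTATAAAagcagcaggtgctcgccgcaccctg
Epgn, chr5:91027267-91027463, plus strand: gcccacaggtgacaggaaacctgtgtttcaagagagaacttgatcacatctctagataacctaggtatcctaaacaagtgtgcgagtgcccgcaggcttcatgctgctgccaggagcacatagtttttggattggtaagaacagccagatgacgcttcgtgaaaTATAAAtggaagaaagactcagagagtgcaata
The CRE letters begin 61 bases before the Areg start and occur, on either strand, in 1.55% of the 32851 promoters in that table. TATAAA begins 31 bases before the Areg start, and 86 before the RefSeq and 33 before the GENCODE start of Epgn, and 12.4% of the promoters hold it. Promoters were found for 7 of the 10 members (not for Ereg, Hbegf and Erbb3). Neither the AP-1 letters TGANTCA (6.75% of promoters) nor the GLI letters GACCACCCA (0.225%) were in the 250 bases before the RefSeq start in those 7, both strands searched. A match of letters is a description and not a measured binding site.

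The ligands of the chromosome 5 cluster were present in both Krt14 control groups and close to the floor in the other 3 groups, except Btc, which was low throughout. Areg, which encodes amphiregulin, stood at 504 and 848 in the Krt14 6-week libraries and 310 and 306 in the Krt14 8-week libraries. It was at 0 and 5 in LOF, 0 and 5 in Inv, and 5 and 3 in GOF, all under the floor of 3 reads. The 6-week and 8-week Krt14 values did not overlap with those of any other group.
Ereg, which encodes epiregulin, was at 244 and 445 in the Krt14 6-week group and 246 and 261 in the Krt14 8-week group. LOF had 5 and 5, Inv 5 and 7, and GOF 8 and 8. Both Krt14 control groups overlapped each other and were far above the remaining 6 libraries.
Epgn, which encodes epigen, had 524 and 1023 at 6 weeks and 264 and 304 at 8 weeks with the Krt14 driver. It had 8 and 23 in LOF, 12 and 7 in Inv, and 22 and 26 in GOF. The order was Krt14 6-week, Krt14 8-week and then the others, of which LOF overlapped both Inv and GOF.
Btc, which encodes betacellulin, was at 43 and 44 in the Krt14 6-week group, 24 and 18 in the Krt14 8-week group, 10 and 28 in LOF, 12 and 16 in Inv, and 20 and 13 in GOF. Apart from the 6-week controls, which were highest, its groups overlapped their neighbours in order of level.

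Hbegf and Tgfa were high in the same 2 groups but stayed measurable everywhere. Hbegf, which encodes heparin-binding EGF-like growth factor and lies on chromosome 18, was at 903 and 1033 in the Krt14 6-week group and 843 and 1064 in the Krt14 8-week group. It was at 85 and 129 in LOF, 41 and 55 in Inv, and 101 and 250 in GOF. GOF overlapped LOF, and the Inv libraries were the lowest.
Tgfa, which encodes transforming growth factor alpha (chr6:86195223-86275719), had 2274 and 2015 at 6 weeks and 1171 and 1329 at 8 weeks with the Krt14 driver. It had 216 and 235 in LOF, 151 and 143 in Inv, and 205 and 533 in GOF. The Krt14 groups did not overlap each other, and every Inv library was below every LOF and GOF library.
Egf itself (chr3:129677565-129755316) ran the other way at a low level. It was at 36 and 24 in the Krt14 6-week group, 31 and 39 in the Krt14 8-week group, 67 and 64 in LOF, 92 and 89 in Inv, and 116 and 73 in GOF. All 4 Krt14 control libraries were below all 6 others.

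**Figure D1:**
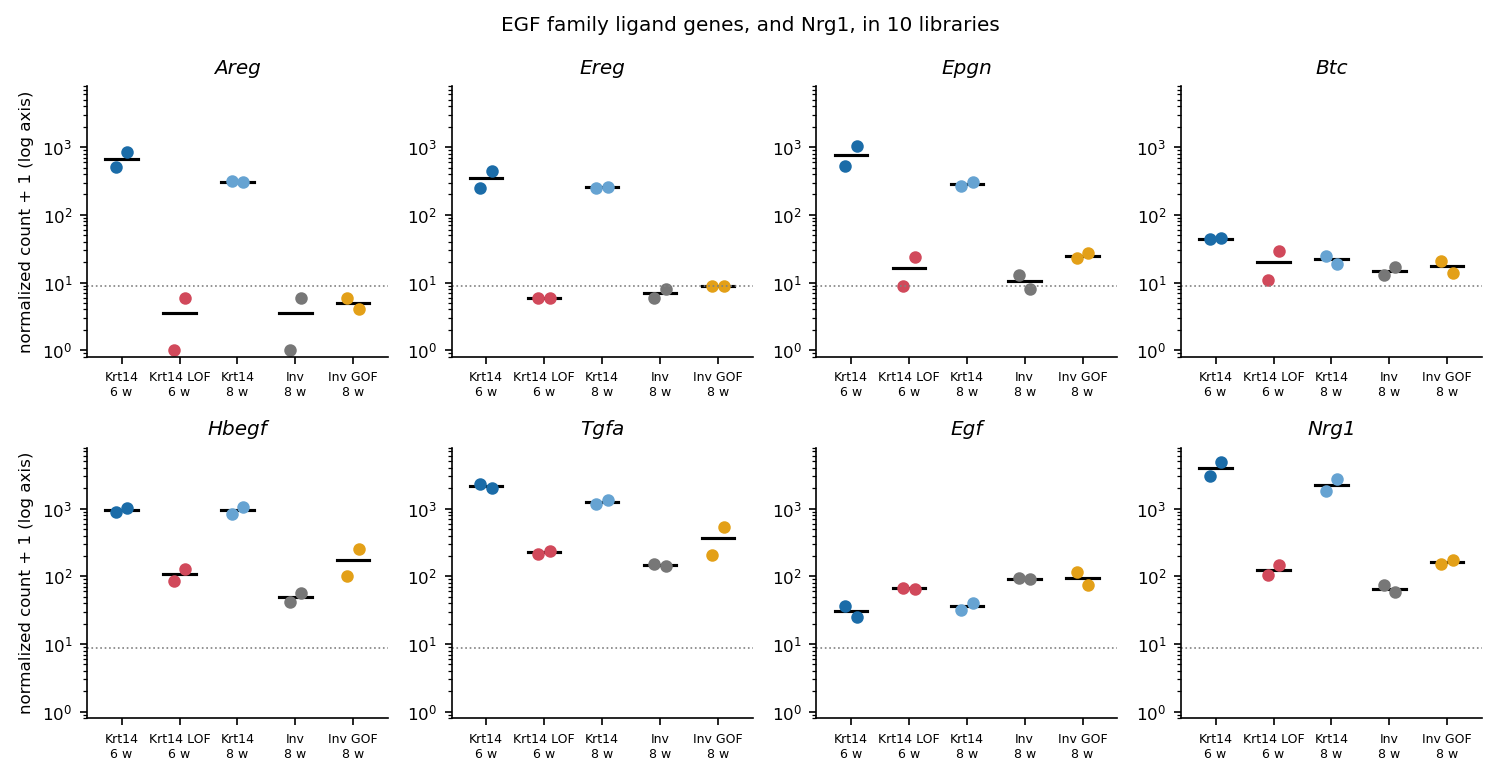
Normalized count + 1 on a log axis for the 7 ligands and Nrg1; points are libraries, bars the mean of the 2 libraries, and the dotted line the highest floor of 3 reads plus 1. Areg, Ereg, Epgn, Hbegf, Tgfa and Nrg1 are high in both Krt14 control groups and low in LOF, Inv and GOF, while Egf is lowest in the Krt14 control groups.

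Levels can be compared between genes only per kilobase of exon. In the Krt14 6-week group the mean normalized count per kb was 556 for Areg, 428 for Epgn, 330 for Tgfa, 200 for Hbegf and 83.5 for Ereg, against 9.62 for Btc and 2.66 for Egf. Summed over the 7 ligands, the level per kb was 1314 to 1908 in the Krt14 6-week libraries and 824 to 916 in the Krt14 8-week libraries. The same sum was 64.7 to 92.8 in LOF, 50.4 to 54.5 in Inv and 85.4 to 162 in GOF. The makeup of the sum differed as well: the 4 chromosome 5 ligands took 53.2% to 72.4% of it in the 4 Krt14 control libraries and 12.1% to 26.5% in the other 6. Hbegf and Tgfa together took 27.5% to 46.4% in the Krt14 controls and 61.3% to 82.6% in the other 6 libraries. Annotated exon length was used, and the isoforms present were not measured.

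**Figure D2:**
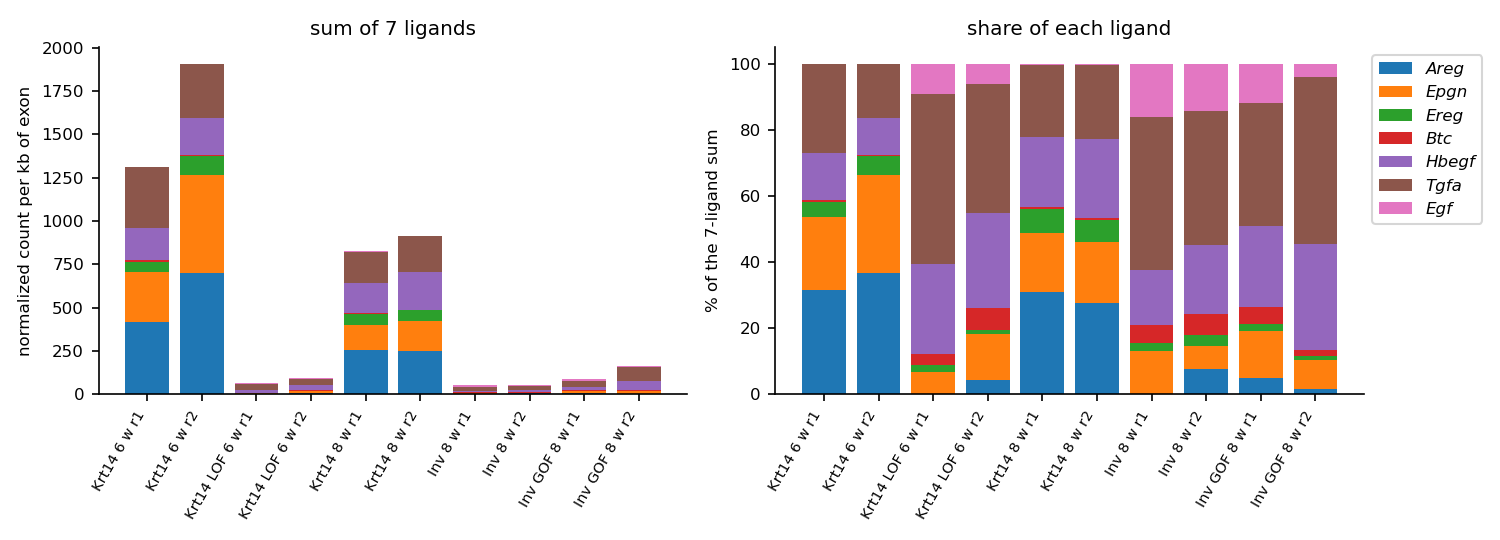
Left, the sum of the 7 ligands in normalized counts per kb of exon, stacked by gene, for each library (r1 and r2 are replicates); right, each ligand's share of that sum in percent. The sum lies at 824 or more in the 4 Krt14 control libraries and at 162 or less in the other 6, where Tgfa and Hbegf take most of it.

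The receptors, in contrast to the ligands, were well expressed in every library. Egfr (chr11:16752203-16918158), the receptor of these ligands, was at 8286 and 7291 in the Krt14 6-week group and 8387 and 7449 in the Krt14 8-week group. LOF had 9854 and 10771, Inv 10423 and 11103, and GOF 8575 and 7464. LOF and Inv overlapped each other and were above the other 3 groups, which also overlapped.
Erbb2 (chr11:98412470-98437716), the partner receptor without a ligand, was at 2890 and 2658 in the Krt14 6-week group, 2654 and 2760 in the Krt14 8-week group, 3043 and 2656 in LOF, 2037 and 1782 in Inv, and 2528 and 2982 in GOF. The Inv libraries were the lowest, and the other 4 groups overlapped.
Erbb3 (chr10:128567523-128589652), a neuregulin receptor whose own kinase is weak, had 3370 and 3032 at 6 weeks and 3316 and 3338 at 8 weeks with the Krt14 driver, 2178 and 2352 in LOF, and 1939 and 1787 in Inv. In GOF it was at 2763 and 6349, and these libraries spread more widely than any other pair for this gene. Per kb of exon the Krt14 6-week group held 688 normalized counts of Egfr, 532 of Erbb2 and 532 of Erbb3.

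**Figure D3:**
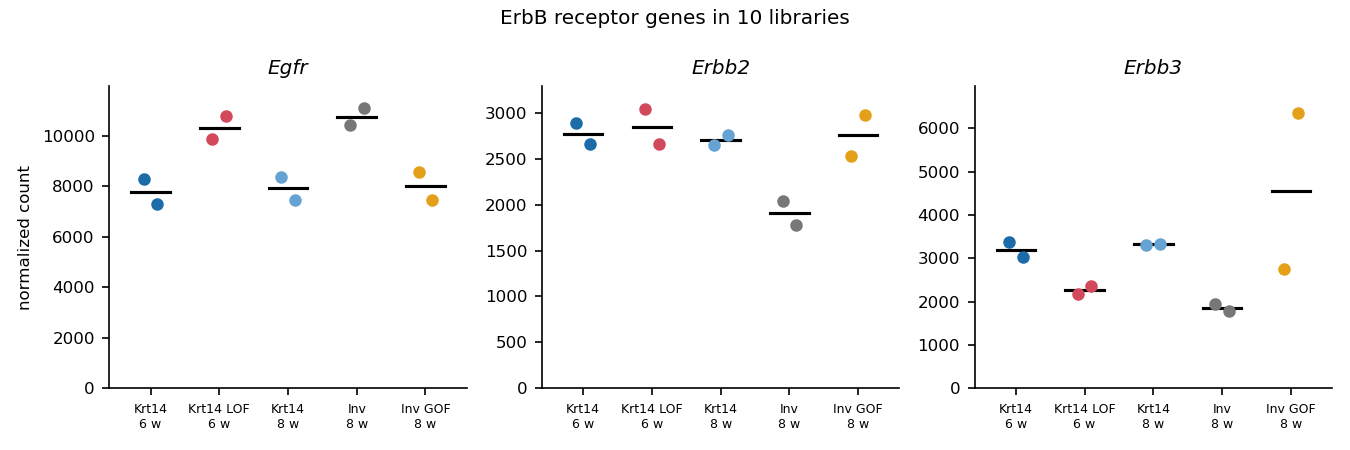
Normalized counts of Egfr, Erbb2 and Erbb3 on linear axes that start at 0; points are libraries and bars the mean of the 2 libraries of each group. Egfr is highest in LOF and Inv, Erbb2 is lowest in Inv, and the GOF libraries differ from each other in Erbb3 (2763 and 6349).

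The first comparison asked what Survivin loss changed at 6 weeks with the Krt14 driver. Of the 10 members, 5 ligands fell, Egf and Egfr rose, and Btc, Erbb2 and Erbb3 were not called. The 7 calls stand beside 30.9% of all tested genes called in this comparison, 11.4% lower and 19.5% higher. Areg rested on 2 reads in LOF against 539 in the controls, a ratio of 283 (95% exact interval 78.0 to 2345). For Ereg it was 4 against 274 reads, a ratio of 72.0 (27.8 to 266), and for Epgn 13 against 615 reads, a ratio of 49.7 (28.9 to 93.9). These intervals come from reads summed over the libraries of a group, so they leave out the spread between libraries. They also take each read as independent, although reads amplified by PCR may be copies of 1 molecule. The adjusted p from limma was 0.000104 for Areg, 7.22e-06 for Ereg and 2.12e-05 for Epgn. In bulk RNA, fewer cells that make a transcript and less of it per cell cannot be told apart.
Hbegf fell by 3.19 on the log2 scale (SE 0.36, adjusted p = 0.000112) and Tgfa fell by 3.24 (SE 0.32, adjusted p = 4.99e-05), which left 11.1% and 10.5% of the control means. Btc differed by -1.32 (SE 0.54, adjusted p = 0.0912), and its call moved with 1 library: without LOF replicate 2 the adjusted p was 0.0409. Egf rose by 1.13 (SE 0.35, adjusted p = 0.0299) and Egfr by 0.41 (SE 0.11, adjusted p = 0.0148). Erbb2 differed by 0.04 (95% interval -0.22 to 0.30) and Erbb3 by -0.50 (-1.10 to 0.11). Both LOF libraries (2178 and 2352) were below both controls (3370 and 3032) in Erbb3. A fit to only these groups called Erbb3 lower and did not call Egf or Egfr, beside 24.5% of all tested genes.
The median change over all tested genes was 0.16, and 63.1% of all calls were higher. Rescaling by the median of ratios moved these to 0.02 and 49.0%, and then Egfr was no longer called (0.26, adjusted p = 0.0736) and Erbb2 stood at -0.11. All 5 falls were called when any of the 4 libraries was left out. Egf lost its call without Krt14 6-week replicate 2, LOF replicate 1 or LOF replicate 2 (0.85, 1.10 and 1.16), and Egfr without Krt14 6-week replicate 2 or LOF replicate 2 (0.31 and 0.34). With the log2 Xist value as a covariate, Hbegf and Tgfa kept their fall and Erbb3 was called lower (-3.50), while Areg (-7.45, adjusted p = 0.281), Ereg (-5.23, adjusted p = 0.114), Epgn (-7.18, adjusted p = 0.0578), Egf (2.06) and Egfr (0.86) kept their direction and were not called. That fit called 4.28% of all tested genes. Its Xist slope comes only from differences between replicates, the largest of them in GOF (7589 and 56185). Because Xist was high in both LOF libraries and low in both controls, the fit cannot separate Xist from group. The sizes for Areg and Ereg depend on the added 1, since LOF was under the floor.

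Several markers of other cells moved with this comparison. Melanocyte markers (7 of 8 called higher) summed to 3016 and 3175 in LOF against 901 and 942. Sebaceous gland markers (6 of 10 higher) summed to between 30064 and 45607 against 15973 and 16809. Fibroblast markers (2 of 7 higher) summed to 18835 and 19198 against 1300 and 2702, most of it Dcn. Col1a2 was at 647 and 1006 against 137 and 19. The other collagen genes did not rise with it: Col1a1 was at 117 and 93 against 218 and 75. Col3a1 was at 30 and 21 against 103 and 24. Lum, Pdgfra and Pdgfrb were at 52 or less in every library. Macrophage and Langerhans cell markers (3 of 7 tested higher) summed to between 776 and 1471 against 270 and 330. Neutrophil markers summed to 3 and 6 in LOF against 42 and 51, and Cxcr2, the 1 tested of the 6, was called lower (51 and 42 to 0 and 3). Keratinocyte markers summed to 368421 and 411310 against 423295 and 459705, with 2 of 10 called higher and 2 lower. The part of these cells in the ligand changes was not tested.

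The second comparison set the Krt14 against the Inv driver at 8 weeks, and it shares no library with the first. The 5 ligands that fell with Survivin loss (Areg, Ereg, Epgn, Hbegf and Tgfa) were all higher with the Krt14 driver, as was Erbb2, while Egf and Egfr were lower. These 8 calls among 10 stand beside 19.6% of all tested genes called, 8.18% higher and 11.4% lower. The share of all tested genes both lower with Survivin loss and higher with the Krt14 driver was not counted. Areg had 254 reads in the Krt14 libraries against 2 in Inv, a ratio of 136 (95% exact interval 37.2 to 1129), with an adjusted p from limma of 0.000388. Ereg had 208 against 5 reads, a ratio of 44.5 (18.8 to 139, adjusted p = 1.44e-05), and Epgn 233 against 8 reads, a ratio of 31.2 (15.6 to 73.1, adjusted p = 6.81e-05).
Hbegf was 19.9-fold higher by group means (log2 difference 4.29, SE 0.36, adjusted p = 2.01e-05) and Tgfa 8.50-fold (3.08, SE 0.32, adjusted p = 8.67e-05). Btc differed by 0.55 (95% interval -0.65 to 1.75). Egf was lower by a log2 difference of -1.35 (SE 0.35, adjusted p = 0.0188) and Egfr by -0.44 (SE 0.11, adjusted p = 0.0141). Erbb2 was higher by 0.51 (SE 0.12, adjusted p = 0.0122), and Erbb3 differed by 0.84 (SE 0.27) without passing (adjusted p = 0.0544). Of 11 alternatives that kept all libraries, Erbb3 stayed uncalled in 4. It was called higher in the others, among them median of ratios and quantile normalization, and was not called with any library left out.
Leaving out any 1 of the 4 libraries kept the 5 ligand calls and lost that of Egf each time (-1.52 to -1.19). Egfr and Erbb2 were not called without Krt14 8-week replicate 2 (-0.36 and 0.48) or Inv replicate 2 (-0.40 and 0.41), which left 5 members called; Egfr was also lost without Inv replicate 1 (-0.49) and Erbb2 without Krt14 8-week replicate 1 (0.53). Xist was at 51 and 118 in the Krt14 8-week group against 194 and 145 in Inv (adjusted p = 0.339). Sebaceous gland markers summed to 34448 and 37835 in the Krt14 8-week group against 165136 and 167101 in Inv, with 9 of 10 called lower. Fibroblast markers summed to 1821 and 2458 against 17974 and 20035 (2 of 7 lower), most of it Dcn. Melanocyte markers summed to 1374 and 1538 against 2407 and 2505 (4 of 8 lower). Keratinocyte markers summed to 417431 and 422247 against 292436 and 295674 (7 of 10 higher). Their part in the ligand differences was not tested.

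The third comparison asked what Survivin gain changed with the Inv driver. Hbegf, Tgfa, Erbb2 and Erbb3 rose, Egfr fell, and the other 5 members were not called, beside 15.3% of all tested genes (6.87% higher and 8.4% lower). Hbegf rose by 1.72 on the log2 scale (SE 0.36, adjusted p = 0.0104) and Tgfa by 1.16 (SE 0.32, adjusted p = 0.0344). Erbb2 rose by 0.53 (SE 0.12, adjusted p = 0.0133) and Erbb3 by 1.17 (SE 0.27, adjusted p = 0.0164), and Egfr fell by 0.43 (SE 0.11, adjusted p = 0.0219).
Areg had 3 reads in GOF against 2 in Inv (ratio 1.65, 95% exact interval 0.189 to 19.8) and Ereg 6 against 5 (1.32, 0.336 to 5.48), so no difference was detectable at this depth. Epgn had 19 against 8 reads and a log2 difference of 1.29 (adjusted p = 0.101).
The GOF libraries stood apart from each other. Replicate 2 held 2.48 times the Hbegf, 2.60 times the Tgfa, 2.30 times the Erbb3 and 2.25 times the Birc5 of replicate 1, but 1.15 times the Nrg1. Without GOF replicate 2 only Hbegf (1.07) and Erbb3 (0.57) were called. Without Inv replicate 1 only Erbb2 (0.62) was, with Hbegf at 1.51, Tgfa at 1.20 and Erbb3 at 1.23, and 5.12% of all tested genes were called. Without Inv replicate 2 none was, with Hbegf at 1.93 (adjusted p = 0.0558), Tgfa at 1.13 and Erbb3 at 1.11, beside 4.15% of all tested genes. Without GOF replicate 1 Hbegf stood at 2.37 and Erbb3 at 1.77. In these fits the share of all tested genes called changed as well, so a call lost or gained is not a result about members alone. No member was called with a fit to only these 2 groups, which called 1.17% of all tested genes. With Xist as a covariate none was called either, and Hbegf stood at -0.97, Tgfa at -1.54 and Erbb3 at -1.10. That Xist fit called 0.182% of all tested genes. Its slope came largely from the GOF replicates themselves, so it cannot separate Xist from Survivin gain. Sebaceous gland markers (10 of 10 lower) summed to between 47311 and 62086 in GOF. Endothelial markers (0 of 5 tested called) summed to 309 and 1200 in GOF against 229 to 285 in Inv, with Kdr at 41 and 294, Cdh5 at 15 and 221 and Emcn at 49 and 242 in GOF replicates 1 and 2. Fibroblast markers (0 of 7 called) summed to between 14814 and 37671 against 17974 to 20035. Most of it was Dcn, at 37402 and 14512 in GOF against 17515 and 19565 in Inv. The part of these cells in the changes was not tested.

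GOF was also set against the Krt14 8-week group, which shares its libraries with the driver comparison. Areg, Ereg, Epgn, Hbegf and Tgfa were lower in GOF, Egf was higher and the receptors were not called, beside 27.7% of all tested genes (15.2% higher and 12.5% lower). The GOF mean was 18.4% of the Krt14 8-week mean for Hbegf and 29.5% for Tgfa, with adjusted p from limma of 0.000536 and 0.00157. For Epgn it was 8.45% (adjusted p = 0.000469). Areg had 3 reads in GOF against 254, a ratio of 82.2 in favour of the Krt14 group (95% exact interval 27.8 to 401). Egfr differed by 0.02 (95% interval -0.22 to 0.25), Erbb2 by 0.02 (-0.24 to 0.28) and Erbb3 by 0.33 (-0.27 to 0.94). Erbb3 rested on GOF replicate 2 here: without it the difference was -0.27, and without replicate 1 it was 0.93 (adjusted p = 0.000103). Egf lost its call without Krt14 8-week replicate 1 (1.22) or GOF replicate 1 (1.05). With Xist as a covariate, Hbegf, Tgfa and Erbb3 were called lower and no other member was called, beside 0.918% of all tested genes. Areg then stood at -5.44, Ereg at -4.34, Epgn at -4.86 and Egf at 2.20. Here too the fit cannot separate Xist from group. Fibroblast markers (1 of 7 higher) summed to 14814 to 37671 in GOF against 1821 to 2458 in the Krt14 8-week group. In both groups most of the sum was Dcn. Sebaceous gland markers (1 of 10 higher, 2 lower) summed to 47311 to 62086 against 34448 to 37835, and endothelial markers (2 of 5 tested higher) to 309 to 1200 against 182 to 216. Their part in these differences was not tested.

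Between 6 and 8 weeks with the Krt14 driver, limma called 0 of the 10 members, against 4.88% of all tested genes (4.02% higher and 0.855% lower), and 2 members had an unadjusted p under 0.05. Of all calls 82.5% were higher, or 53.7% after rescaling by the median of ratios. Tgfa stood at -0.78 (SE 0.32, adjusted p = 0.19), Epgn at -1.37 (SE 0.49, adjusted p = 0.134) and Areg at -1.08 (adjusted p = 0.524). A limma-voom fit on recovered reads called Areg and Epgn lower (adjusted p = 0.0416 and 0.0319).

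The difference between the changes with Survivin gain and with Survivin loss was tested directly in the same model, although these were measured with different drivers and at different weeks. It was called for 7 members, beside 23.7% of all tested genes (8.34% positive and 15.3% negative): the gain minus loss difference was positive for Areg, Ereg, Epgn, Hbegf, Tgfa and Erbb3 and negative for Egfr. It was 4.91 for Hbegf (SE 0.52, adjusted p = 0.000103), 4.41 for Tgfa (SE 0.46, adjusted p = 9.87e-05), 1.67 for Erbb3 (SE 0.39, adjusted p = 0.0103) and -0.83 for Egfr (SE 0.15, adjusted p = 0.00275). Erbb2 did not pass (0.49, adjusted p = 0.0553). Driver, weeks and the kind of Survivin change cannot be told apart in this difference.

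**Figure D4:**
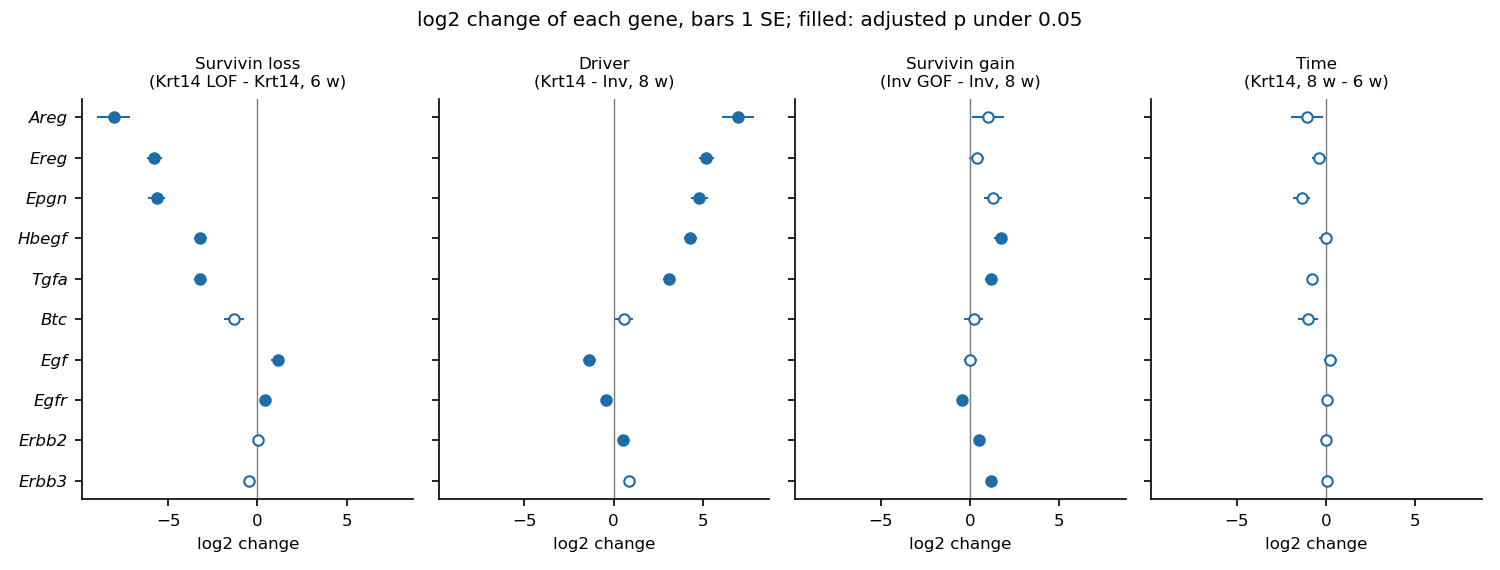
Log2 change of each member in 4 comparisons, with bars of 1 SE; filled points have an adjusted p under 0.05. The 5 ligands from Areg to Tgfa lie far below 0 with Survivin loss and far above 0 with the Krt14 driver, while the 3 receptors stay between -0.50 and 1.17.

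Among the other family genes, the neuregulin gene Nrg1, which encodes a ligand of ERBB3 and ERBB4, moved as the 5 ligands did. It was at 3012 and 4920 in the Krt14 6-week group, 1803 and 2716 in the Krt14 8-week group, 105 and 145 in LOF, 73 and 57 in Inv, and 152 and 175 in GOF. It fell by 4.95 with Survivin loss (SE 0.27, adjusted p = 1.94e-06), was higher with the Krt14 driver by 5.08 (SE 0.27, adjusted p = 2.57e-06) and rose by 1.32 with Survivin gain (SE 0.27, adjusted p = 0.00871), to 7.24% of the Krt14 8-week mean. The rise with gain was not called without Inv replicate 2 (1.15, adjusted p = 0.0963).
Nrg4, an ERBB4 ligand, went the opposite way, at 244 and 207 in the Krt14 6-week group, 401 and 416 in the Krt14 8-week group, 350 and 433 in LOF, 1295 and 1204 in Inv, and 522 and 585 in GOF. It rose by 0.79 with Survivin loss (adjusted p = 0.00308), fell by 1.17 with Survivin gain (adjusted p = 0.00081), and was lower with the Krt14 driver (-1.61, adjusted p = 4.59e-05).
Erbb4, the receptor of Nrg4, was at 28 or less in every library and was called in none of these comparisons, and Nrg3 was listed at 0 in all 10 libraries. Nrg2 lay between 15 and 105. By limma it was higher with Survivin loss (1.44, SE 0.43, adjusted p = 0.0255) and lower in the gain minus loss difference (-2.13, adjusted p = 0.0259). It was not called with the driver or with gain. Its loss call was lost when any library of those groups was left out (1.28 to 1.60).

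The genes whose log2 values tracked a member most closely over the 10 libraries were named by Pearson r among 12078 candidates, as a description. For Areg they were Bdp1 (0.977), Rbp2 (0.977) and Fhl2 (0.976), and for Ereg they were Rbp2 (0.990), Fhl2 (0.989) and Sbsn (0.989). Epgn was closest to Nrg1 (0.991) and to Spink5 (0.985), which encodes a protease inhibitor of the upper epidermis. Hbegf was closest to Palld (0.990) and Slco2a1 (0.984). Tgfa was closest to the ERK phosphatase gene Dusp6 (0.984), to Ier3 (0.983) and to Clcf1 (0.983). Egf was closest to Prmt9 (0.980), Egfr to Zfp667 (0.974), Erbb2 to Prkab2 (0.945) and Erbb3 to Itga2b (0.973). The points share their groups and depth, and for the ligands they form a high and a low cluster of libraries.
Genes around the chromosome 5 cluster did not all move with it. Within 500 kb there were 11 other protein-coding genes, of which 5 were tested. With Survivin loss Cxcl1, a neutrophil chemokine gene, fell (445 and 390 to 15 and 23; adjusted p = 9.75e-05), while Rassf6 rose (158 and 223 to 806 and 823; adjusted p = 3.33e-05) and so did Mthfd2l (242 and 205 to 429 and 386; adjusted p = 0.00324).

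The pathway around the receptors was described through lists chosen by function. The list counts stand beside these shares of all tested genes. With Survivin loss 11.4% were lower and 19.5% higher, and with the Krt14 driver 8.18% were higher and 11.4% lower. With Survivin gain 6.87% were higher and 8.4% lower, and in GOF against the Krt14 8-week group 15.2% were higher and 12.5% lower. Among genes for ligand shedding and trafficking (11 of 13 tested), 4 fell and 2 rose with Survivin loss, against a list median of -0.12 and 0.16 for all tested genes. Adam17, the main protease that frees Areg, Ereg, Hbegf and Tgfa, was at 1346 and 1286 in LOF against 1976 and 2087 (-0.63, SE 0.12, adjusted p = 0.00227). Adam10, which frees Egf and Btc, was at 3774 and 3601 against 6559 and 6330 (-0.81, SE 0.10, adjusted p = 0.000234). With Survivin gain 3 rose and 1 fell: Rhbdf2, whose product carries ADAM17 to the surface, was at 3884 and 3767 against 2442 and 1938 in Inv (0.81, SE 0.11, adjusted p = 0.00125), and Adam10 fell (-0.49, adjusted p = 0.00958). Without Inv replicate 2 Adam10 was not called (-0.41, adjusted p = 0.104), and the 3 rises were 1 without that library or GOF replicate 2. The Krt14 driver had 3 higher and 2 lower.

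Feedback and turnover genes of the receptor mostly were not called: 3 of 16 rose and 1 fell with Survivin loss, 1 was higher and 1 lower with the Krt14 driver, and 3 rose and 2 fell with Survivin gain. Of all tested genes, 30.9%, 19.6% and 15.3% were called in these comparisons. Errfi1, an inhibitor of the EGFR kinase, was at 2520 and 10337 in GOF against 565 and 520 in Inv (3.23, SE 0.45, adjusted p = 0.00121). Both GOF libraries were above all 8 others for this gene, while the list's 3 rises were 1 without GOF replicate 2, Inv replicate 1 or Inv replicate 2. Lrig1, which promotes ErbB degradation, was at 8757 and 8589 in the Krt14 8-week group against 3755 and 3627 in Inv (1.23, SE 0.10, adjusted p = 1.95e-05), and at 4240 and 3990 in the Krt14 6-week group.

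Transcriptional targets of ERK numbered 17, all tested. Of these, 12 fell and 1 rose with Survivin loss (median -1.26 against 0.16 over all genes), and 11 were higher and none lower with the Krt14 driver (median 1.05 against -0.10). Between GOF and the Krt14 8-week group 2 were higher and 8 lower in GOF (median -0.76). The same 10 genes were lower in the first and higher in the second of these comparisons, among them Fosl1, Phlda1, Ier3, Etv4, Etv5 and Egr1. Fewer of the list were called with the driver when any library of those groups was left out. The share of all tested genes with both calls was not counted, here or for the lists below. Fosl1, an AP-1 transcription factor gene, was at 848 and 1292 in the Krt14 6-week group, 447 and 444 in the Krt14 8-week group, 53 and 82 in LOF, 39 and 25 in Inv, and 37 and 89 in GOF. Phlda1 was at 2238 and 2343, then 1148 and 1230, and at 340 and 242 in LOF, 164 and 154 in Inv, and 94 and 193 in GOF. For both, all 4 Krt14 controls were above all 6 others.
With Survivin gain 6 of the 17 rose and 1 fell (median 0.75 against -0.01). Maff rose from 92 and 57 to 227 and 575 (2.30, SE 0.40, adjusted p = 0.00396) and Etv5 from 185 and 204 to 404 and 637 (1.38, SE 0.25, adjusted p = 0.00524). Maff lost its call without Inv replicate 2 (1.96, adjusted p = 0.06) and Etv5 without Inv replicate 1 (1.31, adjusted p = 0.0585). That count of 6 was 2 without GOF replicate 2, 11 without GOF replicate 1, 3 without Inv replicate 1 and 1 without Inv replicate 2. It was 3 without the filter and 0 with a fit to only these groups or with Xist as a covariate. The shares of all tested genes called were then 7.66%, 1.17% and 0.182%.

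Feedback inhibitors of Ras and ERK split by gene. Dusp6, an ERK phosphatase gene, was at 7533 and 7185 in the Krt14 6-week group, 5030 and 6460 in the Krt14 8-week group, 729 and 1105 in LOF, 895 and 856 in Inv, and 957 and 1942 in GOF. With Survivin loss it fell by 3.03 (SE 0.28, adjusted p = 3.10e-05) and was higher with the Krt14 driver by 2.70 (SE 0.28, adjusted p = 7.56e-05). Dusp5, Dusp7 and Spry4 were also lower in the first and higher in the second comparison. Spry4 lost its call for the driver without any 1 of the 4 libraries (adjusted p = 0.131 to 0.173), and for Survivin loss without Krt14 6-week replicate 1 (0.0717) or LOF replicate 1 (0.0866). Dusp4 went the other way, at 53 and 57 in the Krt14 6-week group, 107 and 149 in LOF, 146 and 189 in the Krt14 8-week group and 835 and 775 in Inv. Counts over the 14 tested genes were 4 lower and 3 higher with Survivin loss, 4 higher and 2 lower with the Krt14 driver, and 3 higher and 1 lower with Survivin gain. The 3 higher with gain became 1 without GOF replicate 2, Inv replicate 1 or Inv replicate 2, and 7 without GOF replicate 1.
The adaptors and kinases between receptor and ERK had medians near those of all tested genes. Of 19 tested, 5 fell and 3 rose with Survivin loss (median 0.12), 3 were higher and 3 lower with the Krt14 driver (median 0.02), and 3 rose with Survivin gain (median 0.07). These stand beside 30.9%, 19.6% and 15.3% of all tested genes called in either direction. Gab1, a docking protein gene, was at 4639 and 4255 in LOF against 1787 and 1416 (1.48, SE 0.13, adjusted p = 2.10e-05), and Map2k1, which encodes the ERK kinase MEK1, at 496 and 506 against 927 and 956 (-0.91, SE 0.14, adjusted p = 0.000712). Those 5 falls were 1 to 3 when any of the 4 libraries was left out, and the 3 rises with gain were 1 without GOF replicate 2, Inv replicate 1 or Inv replicate 2.

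Genes of keratinocyte migration and wound repair that EGFR signalling is known to induce numbered 18 among those tested. Of these, 11 fell and 1 rose with Survivin loss (median -1.13), and 12 were higher and none lower with the Krt14 driver (median 1.12), with 10 genes shared, Krt6a, Krt16 and Mmp13 among them. Krt6b, a keratin gene of wounded and hyperproliferative epidermis, was at 7218 and 9380 in the Krt14 6-week group, 6404 and 6291 in the Krt14 8-week group, 330 and 188 in LOF, 192 and 190 in Inv, and 311 and 172 in GOF. With Xist as a covariate the 11 falls were 3, where 4.28% of all tested genes were called. With Survivin gain 5 rose and 1 fell. Those 5 were 2 without Inv replicate 2, 1 with a fit to only these groups and 0 with Xist as a covariate.
Immediate early genes, which tissue dissociation as well as growth factors raise, were listed beside these. Of 17, 7 fell and 3 rose with Survivin loss (median -0.24), 14 were higher with the Krt14 driver (median 1.42), and 12 rose with Survivin gain (median 0.97). The 7 falls were 3 or 4 when any of the 4 libraries was left out, and the 12 rises were 4 without Inv replicate 1 and 1 without Inv replicate 2. Between 6 and 8 weeks 6 rose, beside 4.02% of all tested genes. Fos was at 14589 and 14061 in the Krt14 8-week group against 3542 and 3515 in the Krt14 6-week group, and at 3177 and 2651 in Inv. The part of dissociation in the ERK target counts was not tested.

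**Figure D5:**
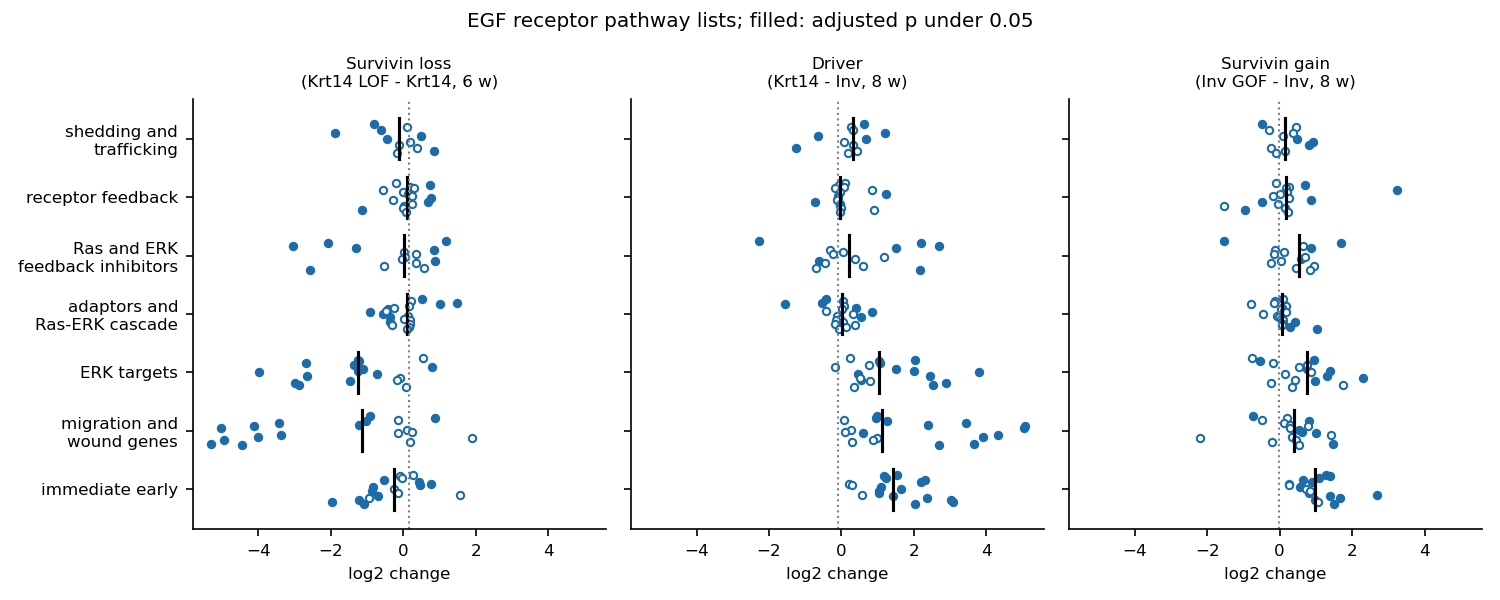
Log2 change of each tested gene of 7 lists in 3 comparisons; filled points have an adjusted p under 0.05, black bars mark the median of a list and the dotted line the median of all tested genes. The medians of the ERK target list (-1.26, 1.05 and 0.75) and of the migration and wound list lie away from the dotted line with Survivin loss and with the Krt14 driver. Those of the immediate early list are -0.24, 1.42 and 0.97, above the ERK target list with the driver and with Survivin gain.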

How the data were processed

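Bulk RNA-seq of 10 libraries in 5 groups of 2 was grouped by the genotype and weeks in the titles. Reads were aligned with STAR and counted with HTSeq on GRCm38 (mm10), per the submitters' processing notes; the sources used here name no version, annotation, strand setting or normalization. The deposited values are treated as a normalized score, not raw counts: 99.3% to 99.9% of values under 20000 in a library equal, rounded up, a whole number of reads times a step of 2.25 to 2.60 per library, which gave the recovered reads. No value column was without a sample (0 unmapped).

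The filter kept genes that reached 10 in 2 or more libraries, and these were tested on log2(value + 1), which understates changes of low genes, with limma 3.58.1 in R 4.3.3 (5 group means, eBayes with trend, 5 residual degrees of freedom, two-sided, Benjamini-Hochberg over all tested genes). The script was tested on simulated data. Counting ratios have 95% exact intervals from summed recovered reads (scipy 1.17.1). Of the gene IDs, 49326 matched GENCODE M21, which gave positions and exon lengths.

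Named were all members, the remaining neuregulins and Erbb4, up to 4 called genes with the smallest p in each list, and the 3 genes closest to each member with a mean of at least 50. A few further genes (Dusp4, Ier3, Spry4, Egr1, Krt16, Fos and genes within the chromosome 5 window) were chosen after their values were seen. Members and lists were chosen with earlier results of these data known. Alternatives covered the pseudocount, filter, scaling, groups fitted, robust variance, a replicate block, Xist as a covariate, limma-voom and leaving out each library.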

Additional observations from a re-analysis of the deposited data

How the results depend on the processing

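Depth limits Areg and Ereg outside the Krt14 controls (6 reads or fewer per group), and 2 libraries a group limit the rest. edgeR was not run, because the deposited values were treated as a normalized score, and limma-voom on recovered reads was used instead. Of the alternative values of members, 641 kept direction and side of the threshold, 58 lost their call, 15 gained one and 31 turned. The cause of the other changes was not tested. The number of members called ranged, over libraries left out, from 5 to 7 with Survivin loss, 0 to 5 with gain, 5 to 6 for the driver, 0 to 0 for the weeks, 5 to 6 for GOF against Krt14, and 6 to 8 for the difference. In every comparison the share of all tested genes called also changed when a library was left out. With Xist as a covariate 3 members were called with loss, 0 with gain, 1 for the weeks and 3 for GOF against Krt14. The shares of all tested genes called there were 4.28%, 0.182%, 8.09% and 0.918%. Except for the weeks, the groups compared there also differed in Xist, which that fit cannot separate from group. The number of members called with gain was 1 without the filter and 0 in a fit to only the groups compared. For the weeks with limma-voom it was 2. The shares of all tested genes called were 7.66%, 1.17% and 3.19%, in that order. Replicate numbers did not pair the samples (correlation of deviations -0.054 to 0.041). A replicate block called 7, 5 and 9 members with loss, gain and the driver, beside 30.5%, 15.5% and 19.3% of all tested genes. The added member was Erbb3 with the driver (adjusted p = 0.049). Directions turned as follows. Median of ratios: Erbb2 with loss -0.11; for the weeks Egfr -0.12 and Erbb3 -0.089; for GOF against Krt14 Egfr -0.055 and Erbb2 -0.052. Quantile normalization: Egf for the weeks -0.27. Xist as a covariate: Erbb2 with loss -0.55; with gain Hbegf -0.97, Tgfa -1.54 and Erbb3 -1.10; for GOF against Krt14 Btc 0.33, Erbb2 -0.49 and Erbb3 -2.30. Over libraries left out, Erbb2 with loss ran from -0.061 to 0.13. With gain, Areg ran from -0.29 to 2.29, Btc from -0.087 to 0.50 and Egf from -0.31 to 0.35. For the weeks, Ereg ran from -0.81 to 0.054, Hbegf from -0.20 to 0.14, Egf from -0.049 to 0.52, Egfr from -0.068 to 0.12, Erbb2 from -0.095 to 0.026 and Erbb3 from -0.019 to 0.13. For GOF against Krt14, Egfr ran from -0.083 to 0.12, Erbb2 from -0.10 to 0.14 and Erbb3 from -0.27 to 0.93.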
